A study of Mus musculus with 6 samples.

Results

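The genes of the unfolded protein response and the integrated stress response were followed in arcuate hypothalamus in which Dicer was missing from Pomc-expressing cells. The set held 35 genes, fixed by name and not by a measured value, and all 35 had at least 1 probe set among the 18193 genes measured. Together they had 83 of the 45037 probe sets tested. The array was an Affymetrix whole-genome expression array for mouse, which reads each transcript with sets of short oligonucleotides, and a value is the log2 expression value of 1 probe set on 1 array. Where 1 probe set stands for a gene below, it is the one with the highest mean over all 6 arrays, called the main probe set.

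The 6 arrays held 3 samples labelled POMCDicerKO and 3 labelled control (Ctrl), 1 array each, from mice that were 2 weeks old and of mixed strain (C57Bl/6J, FVB/N and 129). POMCDicerKO mice lacked the microRNA-processing enzyme Dicer in cells that express Pomc, the precursor gene of the melanocortin peptides. The labels name neither the Cre driver nor the alleles of the controls, and do not say whether a sample was 1 animal or a pool. The samples are described as independent, which the p-values take for granted.

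When unfolded protein builds up in the endoplasmic reticulum (ER), 3 membrane sensors respond. Ern1 (IRE1) splices the Xbp1 transcript, Atf6 is cut to release a transcription factor, and Eif2ak3 (PERK) phosphorylates the translation factor eIF2, which lowers general translation and raises translation of Atf4. The Atf6 and Xbp1 arms raise chaperones and the machinery that returns misfolded protein to the cytosol for degradation (ERAD). The Atf4 arm, shared with other eIF2 kinases as the integrated stress response (ISR), raises genes of amino acid supply and, when prolonged, Ddit3 (CHOP). POMC neurons make a prohormone, the precursor of the melanocortin peptides, which passes through this folding system.

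The regulatory letters through which these arms are known to act are shown here because different elements are known for the chaperone branch and the Atf4 branch. Promoters came from RefSeq, build GRCm38.p6, as windows of 250 bases before to 50 bases after the gene start, and 31 of the 35 genes had one. The ER stress element (ERSE) was searched on both strands as CCAAT, then 9 bases of any kind, then CCACG. It was present in the windows of 9 of these 31 genes (29.0%), against 37 of all 27025 genes with a window (0.137%). The 9 were the chaperone and folding genes Hspa5, Hsp90b1, Calr, Canx, Pdia6, Dnajc3 and Creld2 and the ERAD genes Syvn1 and Derl3. The matches are printed 5′ to 3′ on the strand of the gene, with the fixed letters of the element in capitals. In Calr, Creld2, Derl3 and 1 of the 2 matches of Hsp90b1 the element runs on the opposite strand and so reads as its complement.
Hspa5, chr2:34772019-34772049 (+): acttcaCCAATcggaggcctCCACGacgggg
Hsp90b1, chr10:86705632-86705662 (-): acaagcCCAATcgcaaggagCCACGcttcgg
Hsp90b1, chr10:86705527-86705557 (-): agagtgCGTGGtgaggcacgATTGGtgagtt
Calr, chr8:84847069-84847099 (-): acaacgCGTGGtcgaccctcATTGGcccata
Canx, chr11:50325794-50325824 (-): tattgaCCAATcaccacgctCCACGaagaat
Pdia6, chr12:17266485-17266515 (+): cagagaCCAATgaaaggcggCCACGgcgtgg
Dnajc3, chr14:118937821-118937851 (+): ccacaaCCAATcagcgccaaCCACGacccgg
Creld2, chr15:88819514-88819544 (+): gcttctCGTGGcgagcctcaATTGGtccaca
Syvn1, chr19:6046526-6046556 (+): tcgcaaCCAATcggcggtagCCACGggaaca
Derl3, chr10:75893236-75893266 (+): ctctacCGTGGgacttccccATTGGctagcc

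The match in Hspa5 begins 65 bases before the gene start. The 250 bases before that start, chr2:34771840-34772089 on the + strand, are printed whole because Hspa5 encodes BiP, the chaperone that holds the sensors inactive and the usual readout of this response.
Hspa5 promoter: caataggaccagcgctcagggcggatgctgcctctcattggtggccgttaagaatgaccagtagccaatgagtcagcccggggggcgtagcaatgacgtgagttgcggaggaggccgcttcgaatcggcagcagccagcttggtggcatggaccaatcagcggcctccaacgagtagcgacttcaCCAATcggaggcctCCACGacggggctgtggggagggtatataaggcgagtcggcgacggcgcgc
The shorter ERSE-II, which is ATTGG, 1 base of any kind and CCACG, was found in Herpud1 and Dnajb11, or 6.45% of the 31 genes against 0.0444% of all. A form of the element bound by ATF4 with a C/EBP partner (CARE), TGATGNAAC, was found in Asns, Chac1 and Herpud1, or 9.68% against 0.87% of all genes. Herpud1 therefore held one element of each branch, and they do not overlap. The capitals below mark the fixed letters of ERSE-II and then of CARE, which reads as its complement in Herpud1 and Chac1.
Herpud1 ERSE-II, chr8:94386371-94386393 (+): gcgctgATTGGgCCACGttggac
Herpud1 CARE, chr8:94386310-94386330 (+): cggcggGTTgCATCAgcccgc
Asns CARE, chr6:7693218-7693238 (-): gccacaTGATGaAACttcccg
Chac1 CARE, chr2:119351042-119351062 (+): cctgccGTTgCATCActcctg
These are letter matches, not measured binding sites. A window without a match says only that these letters are not in it.

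Dicer1 and Pomc were read first. At its main probe set, Dicer1 had 9.18, 9.19 and 9.33 on the POMCDicerKO arrays and 9.22, 9.18 and 9.24 on the control arrays, a difference of 0.018, which does not check the labels because the deletion was limited to cells that express Pomc. Pomc had 9.35, 9.71 and 9.43 on POMCDicerKO arrays and 9.94, 10.87 and 9.76 on control arrays, lower in all 3, with a limma adjusted p of 1. At its other probe set, 1455858_x_at, Pomc had 8.82, 9.40 and 8.89 in POMCDicerKO and 9.63, 10.12 and 9.35 in control, where the groups overlapped. Npy, of the neighbouring AgRP/NPY neurons, averaged 11.34 ± 0.84 in POMCDicerKO and 11.98 ± 0.36 in control (SD, n = 3 each), so arcuate transcripts were present in both groups. Its values were 10.38, 11.79 and 11.86 in POMCDicerKO and 11.60, 12.32 and 12.03 in control. The median of 4 POMC and AgRP neuron genes, Pomc among them, relative to the control mean was -0.97, -0.27 and -0.47 against -0.32, 0.44 and -0.02. For 6 tanycyte and ependymal genes it was -0.265, 0.124 and -0.176 against -0.159, 0.324 and -0.113. POMCDicerKO array 1 was the lowest in all of these. In whole tissue, fewer cells of a type and less RNA per cell cannot be told apart. Some arrays stood apart in transcripts of other cells. Relative to the control mean, the median of 8 meningeal and fibroblast genes lay at -0.53, -1.10 and -1.48 on POMCDicerKO arrays 1 to 3 and at 0.33, 0.48 and -0.84 on control arrays 1 to 3. That of 6 myelin genes lay at 0.92, 0.12 and 0.53 in POMCDicerKO and at 0.13, -0.20 and 0.11 in control. Of 5 pituitary genes, Cga had 8.67, 5.08 and 6.27 in POMCDicerKO and 9.46, 9.87 and 7.80 in control, and Gh had 8.92, 6.04 and 8.34 in POMCDicerKO and 6.24, 5.89 and 6.24 in control. The other 3 pituitary genes were lower on average in POMCDicerKO for Tshb and Lhb and higher for Prl. The pituitary also expresses Pomc, and the part of pituitary transcripts in the Pomc difference was not tested.

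The unfolded protein and integrated stress response genes did not differ detectably between POMCDicerKO and control tissue. None of the 83 probe sets passed limma's threshold (Benjamini-Hochberg adjusted p under 0.05 over all 45037 probe sets), where 0% of all probe sets passed and the smallest adjusted p anywhere was 0.417. At an unadjusted p under 0.05, 0 of the 35 genes were called at their main probe sets, against 2.41% of all genes, and 1 of the 83 probe sets, against 2.44% of all probe sets. The groups did not overlap at 1 of the 35 main probe sets, with POMCDicerKO above, against 6.44% of all genes in either direction and 2.58% with POMCDicerKO above. They did not overlap at 3 of the 83 probe sets, against 6.36% of all probe sets. With both directions counted together, these were smaller shares of the set than of the array. For POMCDicerKO above alone, the share of separated main probe sets was not smaller. The counts are too small to set these genes apart from the others on the array.

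The fold changes were small and their intervals narrow enough to limit what could have been missed. Log2 fold changes (POMCDicerKO minus control) at the main probe sets ran from -0.19 for Slc7a11 to 0.18 for Herpud1, with a median of 0.025, where the median over all genes was -0.010. Of the 35 genes, 25 were above 0 (71.4%) and 10 below, against 44.9% of all genes above 0. Without POMCDicerKO replicate 2 the count was 18 (51.4%, against 45.0% of all genes). Over the 83 probe sets, 54 were above 0 (65.1%), against 50.6% of all probe sets. No test was made of that count, and the median size of the differences was 0.058 for the set and 0.051 for all genes. The median position of the 35 genes relative to the control mean was 0.048, 0.071 and 0.015 on POMCDicerKO arrays 1 to 3, against -0.021, 0.018 and 0 on control arrays 1 to 3, so control array 2 lay above POMCDicerKO array 3. The 95% interval stayed within a 1.5-fold change either way for 34 of the 35 genes (97.1%, against 97.2% of all genes), the exception being Slc7a11. It stayed within 1.25-fold for 28 of the 35 (80.0%, against 76.2%). These limits hold for the tissue as a whole, in which POMC neurons are one of many cell types.

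**Figure D1:**
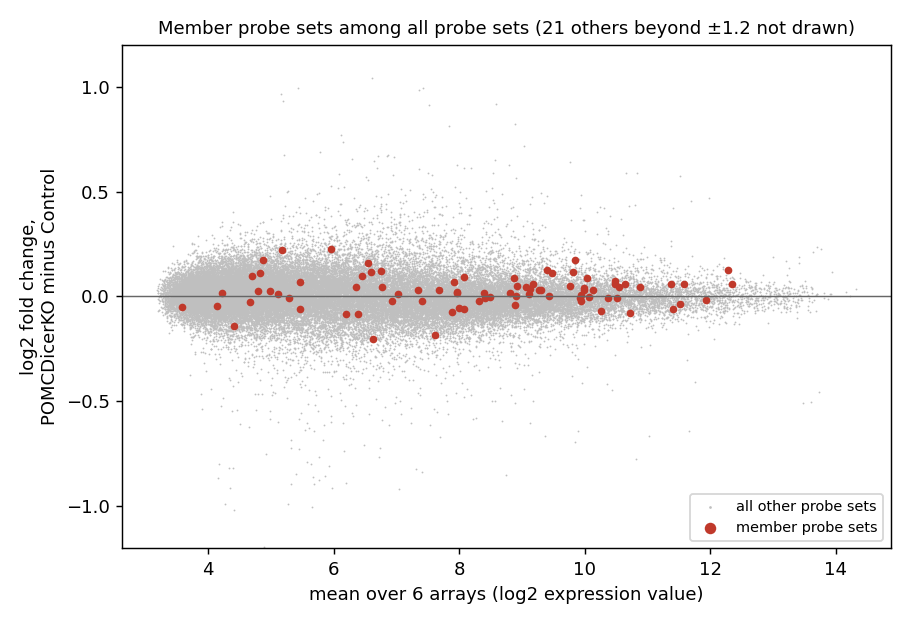
Log2 fold change (POMCDicerKO minus control) against the mean log2 value over 6 arrays for the 83 probe sets of the set (red) and all other probe sets (grey; 21 beyond 1.2 in size are not drawn). The red points lie between -0.20 and 0.23, among the grey points.

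ER chaperones and folding enzymes formed the largest group, with 14 genes, 10 above 0 and 4 below, and a median of 0.026. None passed the test. Hspa5 (BiP) had 12.37, 12.43 and 12.26 on the POMCDicerKO arrays and 12.23, 12.15 and 12.30 on the control arrays. The lowest POMCDicerKO value lay below the highest control value, so the groups overlapped. Its log2 fold change was 0.13 with a standard error of 0.075 and an interval from -0.05 to 0.30 (limma adjusted p = 1). The other probe sets of Hspa5 gave 0.060 and 0.034.

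Hsp90b1 (GRP94), the ER member of the HSP90 family, was at -0.019. The lectin chaperones of newly made glycoproteins, Calr and Canx, were at -0.035 and 0.059. Among the disulphide isomerases, Pdia3 was at -0.009, Pdia4 at 0.002 and Pdia6 at 0.061. A dimmer probe set of Pdia6, 1430983_at, gave 0.23 with an interval from -0.15 to 0.61, the highest value of the 83.

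The co-chaperones that drive BiP's cycle were equally close to 0, with Dnajb9 (ERdj4) at -0.081, Dnajb11 (ERdj3) at 0.004 and Dnajc3 (p58IPK) at 0.033. Sdf2l1, a partner of Dnajb11, was at 0.070, Creld2, a small ER stress-induced protein, at 0.018, and Manf, a secreted ER stress-induced factor, at 0.072. Hyou1, the exchange factor of BiP, had 9.39, 9.45 and 9.53 on POMCDicerKO arrays and 9.39, 9.20 and 9.42 on control arrays at its main probe set, a log2 fold change of 0.13 with overlapping groups, or 0.059 without control replicate 2. A dimmer probe set, 1423290_at, had 6.55, 6.60 and 6.76 in POMCDicerKO and 6.46, 6.49 and 6.47 in control, with no overlap and a difference of 0.16 (limma adjusted p = 1). All 3 probe sets of Hyou1 lay above 0, the third at 0.18, but they were read on the same arrays and are not separate evidence.

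Within this group the arrays differed from each other more than the genotypes did. The pattern and the 3 genes given here were picked after their values were seen. Creld2 had 8.50, 8.75 and 7.97 on POMCDicerKO arrays 1 to 3, against 8.40, 8.56 and 8.22 on control arrays 1 to 3. Sdf2l1 had 8.17, 8.13 and 7.53 in POMCDicerKO, against 7.90, 8.12 and 7.59 in control. Manf had 10.58, 10.71 and 10.24 in POMCDicerKO, against 10.40, 10.53 and 10.39 in control. In all 3, POMCDicerKO array 3 was the lowest of the 6 arrays, and the control arrays lay between the lowest and the highest POMCDicerKO value. The residual SD within groups was 0.31 for both Creld2 and Sdf2l1, higher than that of 97.8% and 98.0% of genes, and 0.18 for Manf, higher than 87.6%.

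The order was shared in part over the whole group, in which Creld2, Sdf2l1 and Manf are counted again. Those genes were picked for this order, so the counts and gaps over the group are not independent of that choice. POMCDicerKO array 2 was above array 3 for 13 of the 14 chaperone genes (92.9%), the exception being Hyou1, against 50.3% of all genes, with a median gap of 0.19. After a further quantile normalisation, added after the data were seen, it was above for 10 of 14, against 46.1% of all genes, with a median gap of 0.15. POMCDicerKO array 3 was the lowest of all 6 for 6 of the 14 genes (42.9%, against 23.6% of all genes). Besides the picked Creld2, Sdf2l1 and Manf, these were Hsp90b1, Dnajb11 and Dnajc3. The median position of the group relative to the control mean was 0.048, 0.14 and -0.11 on POMCDicerKO arrays 1 to 3, against -0.050, 0.078 and -0.015 on control arrays 1 to 3. The group median of log2 fold changes was accordingly 0.089 without POMCDicerKO replicate 3 and -0.022 without replicate 2. The 9 genes with an ERSE gave 0.049, 0.080 and 0.024 on POMCDicerKO arrays and -0.037, 0.056 and -0.012 on control arrays. POMCDicerKO array 2 was above array 3 for 7 of the 9, with a median gap of 0.12. The exceptions were the ERAD genes Syvn1 and Derl3, so this list is not one of chaperones alone. Their part in the gap being smaller than over the 14 chaperones was not tested. Of the 28 other genes with an ERSE in their window, 11 were measured, with a median log2 fold change of -0.018, against 0.043 over the 9.

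Cytosolic heat shock genes shared the order of POMCDicerKO arrays 2 and 3, but not the order of the control arrays. All 6 (Hspa1a, Hspa1b, Dnajb1, Hsph1, Hspb1 and Hsp90aa1) were higher on POMCDicerKO array 2 than on array 3, by a median of 0.82. Their median position was 0.26, 0.39 and -0.47 on POMCDicerKO arrays 1 to 3, against -0.001, -0.074 and -0.001 on control arrays 1 to 3. For 10 immediate early genes, among them Fos and Jun, the positions were 0.24, 0.29 and -0.19 in POMCDicerKO, against 0.34, -0.26 and -0.10 in control. The part of the heat shock or immediate early genes in the chaperone differences was not tested. POMCDicerKO array 2 was also above array 3 for 7 of 8 meningeal and fibroblast genes. The same held for 5 of 6 astrocyte genes and 5 of 6 tanycyte and ependymal genes, but for 0 of 6 myelin genes and 0 of 5 pituitary genes.

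**Figure D2:**
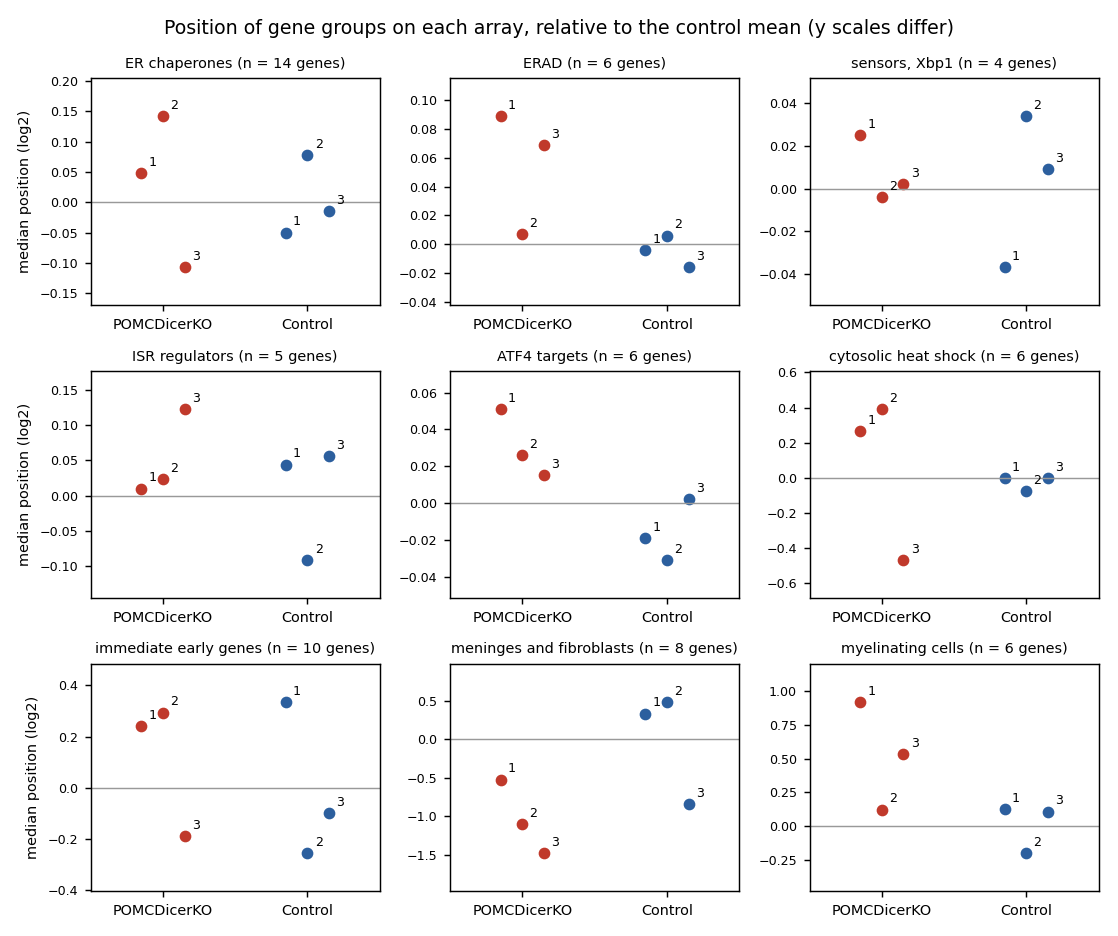
Median position of 9 gene groups on each array (numbered by replicate), POMCDicerKO left and control right, as log2 value minus the control mean; the vertical scales differ. POMCDicerKO array 3 lies lowest for the ER chaperones (-0.11), the heat shock genes (-0.47) and the meningeal and fibroblast genes (-1.48). It lies highest for the ISR regulators (0.12).

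ERAD genes, 6 in number, had 4 above 0 and 2 below, with a median of 0.044, and none passed the test. Edem1, a lectin that extracts misfolded glycoproteins, was the one gene of the 35 whose groups did not overlap at the main probe set. It had 8.12, 8.11 and 8.15 on POMCDicerKO arrays and 8.07, 8.03 and 8.01 on control arrays. The difference was 0.092 with a standard error of 0.059 (limma adjusted p = 1), and with single arrays left out it ran from 0.081 to 0.11. Its residual SD of 0.023 was among the lowest of the array, higher than that of 1.01% of genes, and limma's moderation widened the error accordingly. A second, dim probe set gave 0.070 with overlapping groups.

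Herpud1, a membrane adaptor of the ERAD complex, showed the highest log2 fold change of the 35 genes. Its values were 9.95, 9.98 and 9.86 on POMCDicerKO arrays and 9.82, 9.57 and 9.88 on control arrays, with control array 2 the lowest of the 6 and overlapping groups. The difference was 0.18 with a standard error of 0.093 and an interval from -0.04 to 0.39 (limma adjusted p = 1), and without control replicate 2 it was 0.083. The ubiquitin ligase Syvn1 (HRD1) and its partner Sel1l were at 0.045 and -0.071. The channel-forming derlins Derl1 and Derl3 were at -0.059 and 0.043. For Sel1l, 3 of its 5 probe sets lay above 0 and 2 below, from -0.073 to 0.12.

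The 3 sensors and Xbp1 lay near 0, with a median of -0.021, or 0.013 without POMCDicerKO replicate 1. Ern1 had 7.78, 8.10 and 8.05 on POMCDicerKO arrays and 7.98, 8.03 and 8.08 on control arrays. POMCDicerKO array 1 was the lowest of the 6, and the difference of -0.056 was 0.043 without it. Eif2ak3 had 8.87, 8.72 and 8.85 in POMCDicerKO and 8.85, 8.73 and 8.82 in control, a difference of 0.014 with an interval from -0.15 to 0.18. A probe set of Eif2ak3 near the lower end of the scale, 1453505_a_at, had 4.37, 4.27 and 4.37 in POMCDicerKO and 4.67, 4.38 and 4.39 in control. These groups did not overlap, though POMCDicerKO arrays 1 and 3 lay next to control array 2, and the difference was -0.14 (limma adjusted p = 1). Atf6 had 8.13, 8.02 and 8.0 in POMCDicerKO and 8.05, 8.18 and 8.12 in control, overlapping groups with a difference of -0.062.

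Xbp1, the transcription factor whose transcript Ern1 splices, had 11.60, 11.72 and 11.55 in POMCDicerKO and 11.54, 11.64 and 11.51 in control. These groups overlapped, with a difference of 0.059, a standard error of 0.074 and an interval from -0.11 to 0.23, and the difference was 0.010 without POMCDicerKO replicate 2. All 4 of its probe sets lay between 0.043 and 0.12. The annotation used here does not tell the spliced from the unspliced form, so splicing was not measured.

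**Figure D3:**
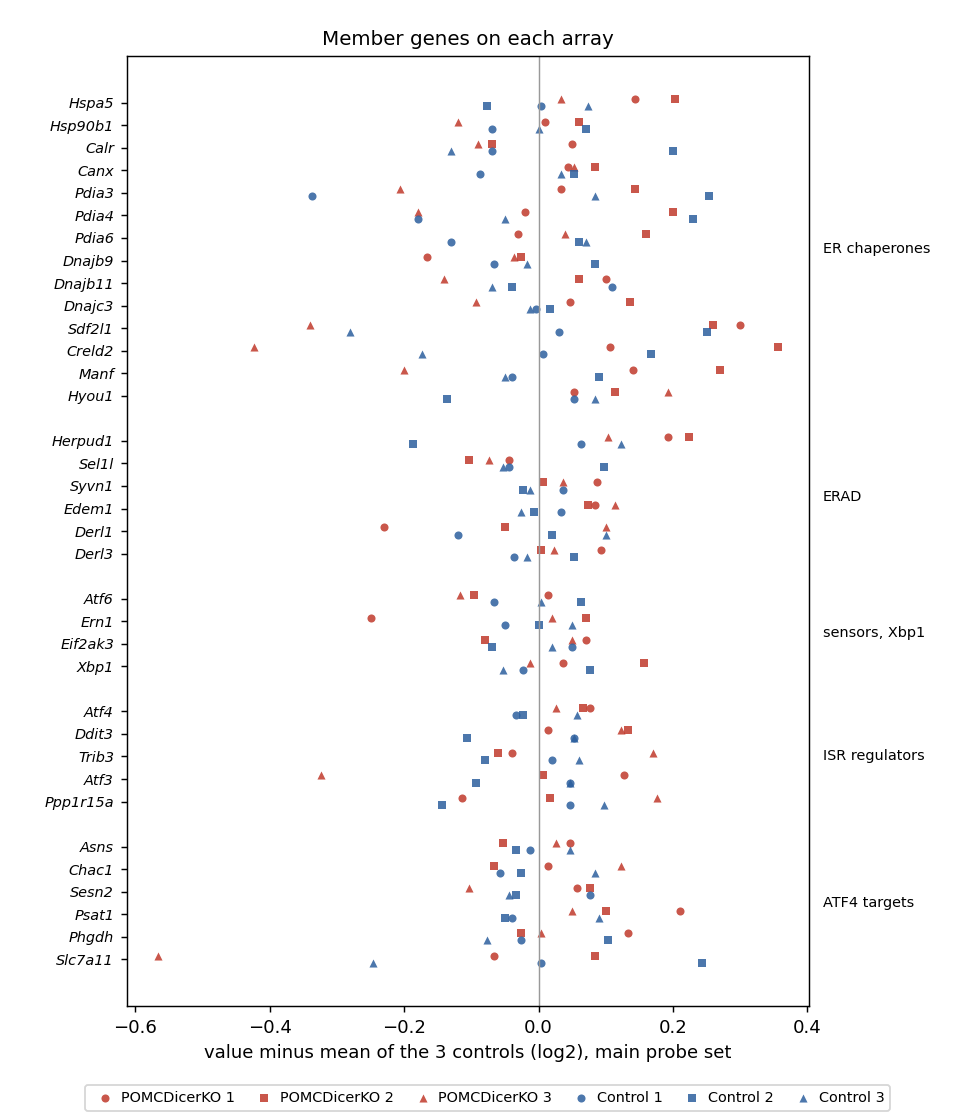
Value of each of the 35 genes on each array at its main probe set, as log2 value minus the mean of the 3 controls; red symbols are POMCDicerKO, blue symbols control, and the symbol shape gives the replicate. Red and blue overlap in every gene but Edem1, and the spread is widest in Slc7a11, Creld2 and Sdf2l1.

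The transcription factors and regulators of the ISR numbered 5, with 4 above 0 and 1 below and a median of 0.031. With single arrays left out, that median ran from -0.014 without control replicate 2 to 0.081 without control replicate 3. Atf4 had 10.70, 10.69 and 10.65 on POMCDicerKO arrays and 10.59, 10.60 and 10.68 on control arrays. The groups overlapped only through control array 3, and the difference was 0.058 with an interval from -0.09 to 0.20. Atf4 is controlled largely at translation, which these arrays do not read. Ddit3 (CHOP), which promotes cell death in prolonged ER stress, had 8.85, 8.97 and 8.96 in POMCDicerKO and 8.89, 8.73 and 8.89 in control. Its difference was 0.089 with a standard error of 0.075 and overlapping groups, or 0.035 without control replicate 2. A dim probe set of Ddit3, 1443897_at, had 5.32, 5.36 and 5.19 in POMCDicerKO and 5.23, 5.01 and 4.95 in control. That difference, 0.22 with an interval from 0.01 to 0.44, gave the only unadjusted call among the 83 probe sets, but its groups overlapped and the limma adjusted p was 1.

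Atf3, which is induced by the ISR and also by neuronal injury and activity, had 5.62, 5.50 and 5.17 in POMCDicerKO and 5.54, 5.40 and 5.54 in control. POMCDicerKO array 3 was lowest, as it was for all 6 heat shock genes but only 6 of the 14 chaperones, and the difference was -0.060. Trib3, a pseudokinase target of CHOP, was at 0.025 at a dim probe set with a mean of 4.79. Ppp1r15a (GADD34), which restores translation by returning eIF2 to its active form, was at 0.031.

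The Atf4 targets of amino acid and redox metabolism numbered 6, with 5 above 0 and 1 below and a median of 0.016. Asns, asparagine synthetase, had 9.98, 9.88 and 9.96 on POMCDicerKO arrays and 9.92, 9.90 and 9.98 on control arrays. These values overlapped fully, and the difference was 0.008 with an interval from -0.14 to 0.16. Chac1, which breaks down glutathione, was at 0.019 and Sesn2, a leucine-sensing inhibitor of mTORC1, at 0.012. The serine synthesis enzymes Phgdh and Psat1 were at 0.032 and 0.12, and Psat1 had 9.97, 9.86 and 9.81 in POMCDicerKO against 9.72, 9.71 and 9.85 in control, with overlap at control array 3. Without POMCDicerKO replicate 1 the Psat1 difference was 0.072. The cystine transporter Slc7a11 had 7.63, 7.78 and 7.13 in POMCDicerKO and 7.70, 7.94 and 7.45 in control. Its difference of -0.19 had the widest interval of the 35, from -0.61 to 0.24, and was 0.006 without POMCDicerKO replicate 3. Over the 6 genes the median position was 0.051, 0.026 and 0.015 on POMCDicerKO arrays, against -0.019, -0.031 and 0.002 on control arrays. These array medians did not overlap, as deposited or after the further quantile normalisation. Nor did the array medians of 5 endothelial and pericyte genes, at 0.135, 0.081 and 0.127 in POMCDicerKO against 0.011, 0.052 and -0.034 in control as deposited. Those of 5 choroid plexus genes did not overlap either, at -0.165, -0.185 and -0.123 in POMCDicerKO against -0.085, -0.06 and -0.01 in control as deposited. The array medians of 30 other ATF4 target genes overlapped, at 0.047, 0.008 and -0.027 in POMCDicerKO against -0.004, -0.013 and -0.002 in control. Those of the ERAD genes were 0.089, 0.007 and 0.069 in POMCDicerKO against -0.004, 0.006 and -0.016 in control. After the further quantile normalisation they overlapped, at 0.083, -0.013 and 0.11 in POMCDicerKO against 0.011, -0.001 and -0.026 in control. No test was made of any of these medians. For the Atf4 targets the log2 fold changes had a median of -0.011 without POMCDicerKO replicate 1.

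Where a gene had several probe sets, they did not always share a direction. Of the 26 genes with more than 1 probe set, 18 had all of them on the same side of 0. The other 8 had probe sets on both sides. Of the 83 probe sets, 16 had a mean under 6, where signal over background is low, and 11 with the suffix _x_at and 12 with _s_at can match several transcripts. Trib3 and Atf3 were the 2 genes whose main probe set had a mean under 6.

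Further genes of the pathways, 106 listed and 100 measured, also gave no call at the adjusted threshold. Their median log2 fold change was -0.010, the same as over all genes, with 39 above 0 and 61 below. Other ER folding and translocation genes (34 measured) had a median of -0.011, with the prolyl isomerase Fkbp7 at -0.22 and the translocon partner Sec63 at 0.12. Other ERAD genes (17 measured) had a median of -0.003, with values from -0.11 to 0.067. Other ATF4 targets (30 measured), among them aminoacyl-tRNA synthetases, had a median of -0.005, with the mTORC1 inhibitor Ddit4 at 0.20 and the folate enzyme Mthfd2 at -0.22.

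Other signalling genes (19 measured) had a median of -0.039 and held the one unadjusted call among the 100. Nupr1, a stress-induced nuclear protein, had 5.71, 5.17 and 4.85 in POMCDicerKO and 6.76, 6.33 and 5.33 in control. Its difference was -0.89 with an interval from -1.73 to -0.05 (limma adjusted p = 1), and control array 3 lay within the POMCDicerKO range. The meningeal and fibroblast genes, 8 of 8 lower on average, had a median position on control array 3 of -0.84, among POMCDicerKO arrays at -0.53 to -1.48, though Fmod on that array lay above all POMCDicerKO arrays, and their part in the Nupr1 difference was not tested. Wfs1, an ER protein of neuroendocrine cells, was at -0.21 with values of 9.17, 9.49 and 9.28 in POMCDicerKO and 9.38, 9.57 and 9.61 in control. The eIF2 kinases other than Eif2ak3, of which Eif2ak1 and Eif2ak2 were chosen for their role after values were seen, were at -0.13 (Eif2ak1), 0.041 (Eif2ak2) and 0.10 (Eif2ak4), and none was called.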

How the data were processed

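The deposited values were log2 expression values made by the authors with RMA and the affy package, per the submitters' processing notes, which give no version. RMA corrects background, quantile-normalises arrays and summarises probes, so a shift shared by most transcripts would be lost. Values were used as deposited (0 unused sample columns), with array medians between 6.02 and 6.05. Array number, not a read depth, limits the precision.

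After 64 AFFX control probe sets were left out, 45037 were tested. GEO's platform annotation gave 1 symbol to 34945 and several to 932; 9160 were unlisted. Symbols were updated through Entrez identifiers in RefSeq's GRCm38.p6 gene table (34741 found). POMCDicerKO minus control was fitted with limma 3.58.1 in R 4.3.3 (lmFit, eBayes), with Benjamini-Hochberg adjustment over all probe sets. An exact permutation test of 3 against 3 cannot go below p = 0.1 and was not used. The fit was tested on simulated data with independent noise. At the adjusted threshold it recovered 52.0% of changes of 0.5 on the log2 scale, with 11 false calls, and 98.0% of changes of 1.0, with 17. Smaller changes were not simulated.

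All 35 genes were named by rule. Arrays were listed for those with an unadjusted call or separate groups at the main probe set, and for Hspa5, Ern1, Eif2ak3, Atf6, Xbp1, Atf4, Ddit3, Atf3 and Asns; other arrays listed were chosen after their values were seen. The genes, lists and rules were chosen with earlier results of these data known. Alternatives were array centring, further quantile normalisation, a mean of at least 6, trended and robust priors, array weights, a replicate block, other uses of a gene's probe sets and leaving out each array; leaving out controls 1 and 2 together was added after the data were seen. The labels give no batch, so none was tested.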

Additional observations from a re-analysis of the deposited data

How the results depend on the processing

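The count of set probe sets past the adjusted threshold was 0 in every alternative run. Over all probe sets the count was 0, or 0 to 2 with single arrays left out and 1 without controls 1 and 2. The unadjusted count among the 35 genes was 0, or 0 to 1 with single arrays left out (Herpud1 without control replicate 3, Manf without POMCDicerKO replicate 3). The set's median ran from 0.009 to 0.07 with single arrays left out, that of the ATF4 amino acid and redox targets from -0.011 to 0.05 (0.042 without controls 1 and 2), and that of other ATF4 targets from -0.02 to 0.039. It ran from -0.022 to 0.089 for chaperones, 0.025 to 0.062 for ERAD genes, -0.025 to 0.013 for the sensors and Xbp1, -0.014 to 0.081 for ISR regulators and -0.035 to 0.029 for other ERAD genes; other ERAD genes were at -0.052 without controls 1 and 2. Replicate numbers were not taken to pair the samples, which are described as independent. Same-numbered deviations from the group means correlated at 0.128, 0.0787 and 0.12. Differently numbered ones were not compared, so these values cannot decide whether the samples were paired. With the replicate block the count of set probe sets past the adjusted threshold stayed at 0. Each number occurs once in each group, so the block cannot change a fold change, and the set's median of 0.025 was bound to stay. Of 488 gene values under alternatives, 432 kept their sign and 56 turned, in 22 genes, among them Slc7a11, and the cause was not tested. The trended and robust priors, the replicate block and the filter on the mean leave each fold change as it is. The values from these alternatives could not turn, so the share that kept their sign overstates stability. The 13 genes that kept their sign throughout were Hspa5, Canx, Dnajb9, Hyou1, Herpud1, Syvn1, Edem1, Derl3, Atf6, Xbp1, Atf4, Ddit3 and Psat1. With array weights, Hsp90b1 was at 0.01, Pdia3 at 0.048, Eif2ak3 at -0.001, Trib3 at -0.016, Ppp1r15a at -0.012, Asns at -0.003 and Chac1 at -0.011. With arrays centred, Pdia4 was at -0.005 and Dnajb11 at -0.003. With the mean of all probe sets, Sel1l was at 0.01, Eif2ak3 at -0.06 and Sesn2 at -0.006. With single arrays left out, ranges were -0.059 to 0.032 for Hsp90b1, -0.099 to 0.063 for Calr, -0.177 to 0.117 for Pdia3, -0.095 to 0.115 for Pdia4, -0.003 to 0.103 for Pdia6, -0.041 to 0.077 for Dnajb11, -0.021 to 0.094 for Dnajc3, -0.069 to 0.276 for Sdf2l1, -0.152 to 0.236 for Creld2 and -0.026 to 0.207 for Manf. They were -0.139 to 0.027 for Derl1, -0.12 to 0.043 for Ern1, -0.022 to 0.06 for Eif2ak3, -0.046 to 0.067 for Trib3, -0.155 to 0.07 for Atf3 and -0.042 to 0.101 for Ppp1r15a. They were -0.01 to 0.037 for Asns, -0.03 to 0.064 for Chac1, -0.022 to 0.07 for Sesn2, -0.015 to 0.084 for Phgdh and -0.319 to 0.006 for Slc7a11. With 3 arrays a group, 95% intervals over the 35 genes reached a median of 0.178 to either side on the log2 scale, and the 16 probe sets with a mean under 6 are the least reliable by signal over background.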
